A study of Homo sapiens with 12 samples.

Results

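The type I and type III interferon genes counted here are 8 genes chosen by symbol from 50868 gene identifiers in the table: the ligand genes IFNB1, IFNL1, IFNL2 and IFNL3, and the receptor chain genes IFNAR1, IFNAR2, IFNLR1 and IL10RB. They were picked with the knowledge that the 4 ligand genes were higher in MKN28 knockdown libraries, so their knockdown values are given as a description, without a test. Read counts came from 12 total RNA libraries of MKN28 and MKN45, established human gastric cancer cell lines, in 4 groups of 3 libraries. All groups carried a lentivirus (LV): MKN28 with LV-Control (genotype WT), MKN28 with a lentiviral siRNA labelled as a ZNF165 knockdown, MKN45 with LV-Control (genotype WT), and MKN45 with LV-ZNF165, labelled as overexpression. The titles of the 3 knockdown libraries share one code, while the descriptions of replicates 2 and 3 name ZNF166 and ZNF167. The genotype field, which gives ZNF165 for all of them, was followed. Nothing in the labels says that replicates were separate cultures, so p-values here cover only library-to-library spread, part or all of which may be technical.

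Interferon beta, encoded by IFNB1, is a secreted type I interferon that epithelial cells make after intracellular sensors detect viral or misplaced nucleic acid. It signals through a receptor of IFNAR1 and IFNAR2. The interferon lambdas are type III interferons with a similar output at epithelial surfaces, and they signal through IFNLR1, the chain that sets which cells respond, paired with IL10RB, which also serves receptors of the interleukin 10 family. Both receptors act through the kinases JAK1 and TYK2 on STAT proteins, among them STAT2, which joins IRF9 to switch on interferon-stimulated genes. Transcription of the ligand genes is itself driven by interferon regulatory factors (IRF) and NF-kB at short elements just before the start.

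The stretches before the start sites are shown first, since all 4 ligand genes were higher in the MKN28 knockdown and had no count in MKN45. Sequences are from RefSeq (GRCh38.p14), read 5′ to 3′ on the gene's strand. Capitals mark the IRF core AANNGAAA, on either strand, and the NF-kB element, GGGA and TTCC set 2 bases apart.
IFNB1, chr9:21077973-21078052, minus strand: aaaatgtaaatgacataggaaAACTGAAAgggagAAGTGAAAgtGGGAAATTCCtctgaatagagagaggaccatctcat
IFNL1, chr19:39296322-39296351, plus strand: tccaattacctTTTCACTTtacacacatca
IFNL2, chr19:39268286-39268365, plus strand: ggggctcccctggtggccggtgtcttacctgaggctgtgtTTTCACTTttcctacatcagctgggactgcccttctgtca
IFNL3, chr19:39245281-39245360, minus strand: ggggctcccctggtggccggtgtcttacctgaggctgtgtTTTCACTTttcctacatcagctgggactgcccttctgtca

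RefSeq gives IFNL3 a pair of starts and the other ligand genes 1 each. The windows of IFNB1, IFNL1, IFNL2 and the upstream start of IFNL3 held AANNGAAA within 89 bases of the start, IFNB1 in its sense strand and the lambda genes in the antisense strand. The window of the other IFNL3 start held none of the patterns searched. That short core, which was chosen after the windows were read, is present in 22.8% of 35116 RefSeq promoter windows of the same 300 bases. The longer IRF element, GAAA and GAAA set 2 bases apart, held by 3.57% of windows, was found in IFNL1, IFNL2 and the upstream IFNL3 window but not in IFNB1, farther from the start than the stretches shown. The NF-kB element, held by 1.61% of windows, and the TATA box TATAAA, held by 11.5%, were found in IFNB1 and in no lambda gene. The AP-1 element TGANTCA, held by 7.71%, was found in none of the 4. Windows were at hand for 7 of the 8 genes, all but IFNAR2, and those of IFNAR1, IFNLR1 and IL10RB held none of the 5 letter patterns. Over 300 bases the windows of IFNL2 and the upstream IFNL3 start differed at 1 position. A match is a description of letters and not of bound protein.

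The libraries differed in more than the interferon genes. Totals ran from 12075813 to 19548445 counts. ZNF165 had 186 to 287 counts in MKN28 controls against 22 to 74 in knockdown libraries, and 140 to 277 in MKN45 controls against 1909 to 2115 with overexpression. Levels are given as CPM, a gene's count relative to the library total (1 CPM is 1 count in 1e+06), with totals scaled by TMM factors within the line unless stated otherwise. Knockdown replicate 1 stood apart from replicates 2 and 3 in TMM factor (1.02 against 0.598 and 0.761) and in genes with a count (20560 against 17620 and 17504).

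In MKN28 all 4 ligand transcripts were detected in every control library and were far more abundant in every knockdown library. The ratio of group means was 23.8 for IFNB1, 20.7 for IFNL1, 22.0 for IFNL2 and 36.2 for IFNL3. Of 14939 genes tested, IFNL3 ranked 46th, IFNB1 88th, IFNL2 98th and IFNL1 105th by log2 fold change, with no test attached.

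IFNB1, the type I member, had 39, 30 and 16 counts in control replicates 1 to 3 and 880, 164 and 142 in knockdown replicates 1 to 3. Scaled, these were 1.64, 1.33 and 0.710 CPM against 56.9, 15.4 and 15.5 CPM. Knockdown replicate 1 was by far the highest, and the lowest knockdown library still lay above the highest control. The mean went from 1.23 ± 0.473 to 29.2 ± 23.9 CPM (SD, n = 3), a log2 fold change of 4.63 (SE 0.74) in the edgeR fit. It was 3.88 without knockdown replicate 1 and 5.59 with replicate 1 as the lone knockdown library.

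IFNL1, which encodes interleukin 29, had 139, 251 and 55 counts in controls and 1213, 1825 and 1395 in knockdown libraries. The levels were 5.84, 11.2 and 2.44 CPM against 78.4, 171 and 152 CPM. Here knockdown replicate 1 was the lowest of its group, the opposite of its place for IFNB1, and the groups did not overlap. The log2 fold change was 4.47 (SE 0.68).

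IFNL2, which encodes interleukin 28A, had 115, 172 and 67 counts in controls and 1868, 1112 and 1060 in knockdown libraries, or 4.83, 7.65 and 2.97 CPM against 121, 104 and 115 CPM. IFNL3, which encodes interleukin 28B, had 133, 212 and 44 counts against 2821, 2195 and 2076, or 5.58, 9.42 and 1.95 CPM against 182, 206 and 226 CPM. Neither gene's groups overlapped, and the spread within the knockdown was small, with means of 113 ± 8.36 CPM for IFNL2 and 205 ± 21.8 CPM for IFNL3 (SD, n = 3). The log2 fold changes were 4.55 (SE 0.54) and 5.27 (SE 0.66). Control replicate 3 was the lowest control for all 4 ligands. Replicate 2 was the highest control for the 3 lambda genes and replicate 1 for IFNB1. Of all genes tested, 53.7% had groups that did not overlap in either direction and 22.2% had the knockdown higher; the choice of these 4 genes used this contrast, so nothing is read from their count.

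**Figure D1:**
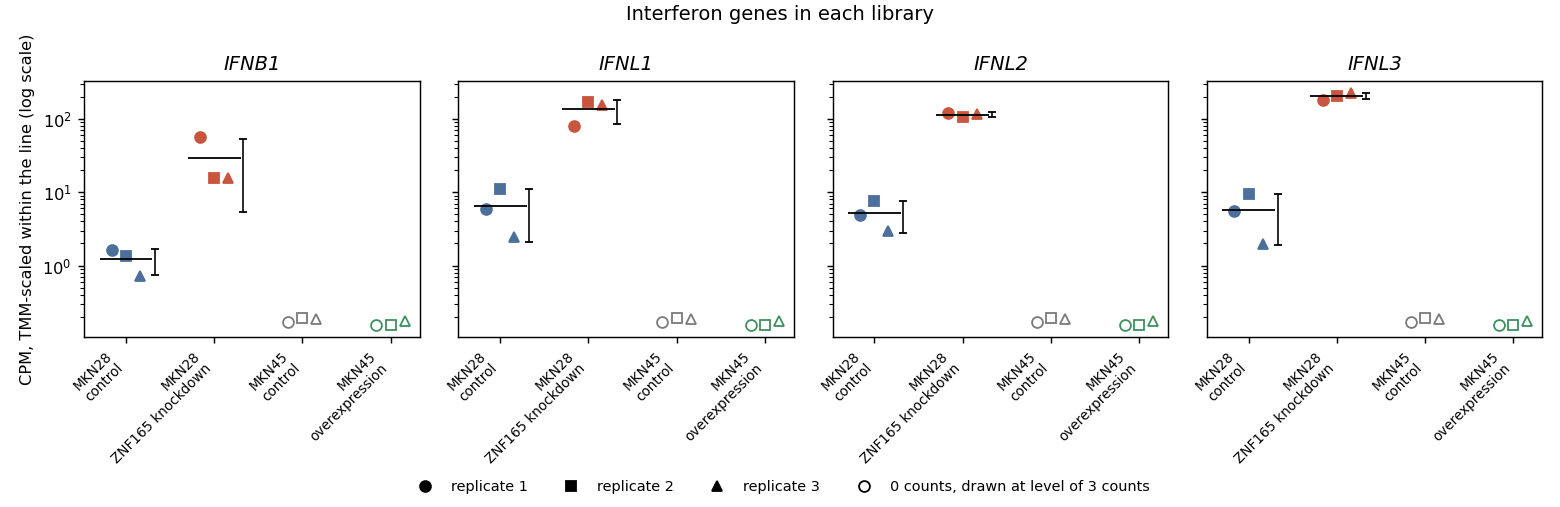
CPM (log scale, TMM-scaled within each line) of the 4 ligand genes in each of the 12 libraries, with group means as lines and SD as bars at their right. In MKN28 every knockdown library lies above every control, and in MKN45 all 6 libraries had 0 counts, drawn as open symbols at the unscaled level of 3 counts.

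The lambda genes lie together on chromosome 19 (GRCh38, GENCODE 29): IFNL3 at 39243553 to 39245129 on the minus strand, IFNL2 at 39268514 to 39270092 and IFNL1 at 39296325 to 39298673 on the plus strand. IFNL4, between IFNL3 and IFNL2, spans 39246314 to 39248856. The cluster covers 55121 bases, and no annotated gene overlaps IFNL1, IFNL2 or IFNL3. IFNB1 is a gene of 859 bases on chromosome 9 (21077105 to 21077963, minus strand), also with no overlapping gene. IFNL2 and IFNL3 transcripts were identical at 719 of 734 aligned bases, and 32.0% of the words of 50 bases in IFNL2 also occur in IFNL3. The counting could therefore have split or moved reads between IFNL2 and IFNL3, and their separate values are uncertain. IFNL1 shared no word of 50 bases with either.

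Per kilobase of transcript, IFNL3 was the most abundant ligand in every knockdown library, with 43.6%, 43.9% and 46.7% of the summed ligand CPM per kilobase in replicates 1 to 3. In controls its share was 33.3%, 34.0% and 25.7%. IFNB1 was the least abundant of the 4 in all 6 MKN28 libraries, with 8.33%, 4.11% and 7.97% in controls and 11.6%, 2.80% and 2.73% in the knockdown. The lambda genes together had 9.92, 21.2 and 10.4 times the counts of IFNB1 in controls and 6.71, 31.3 and 31.9 times in the knockdown. Replicate 1 of the knockdown was thus outside the control range on one side and replicates 2 and 3 on the other. The summed ligand level was 17.9, 29.6 and 8.08 CPM in controls and 438, 497 and 509 CPM in knockdown libraries.

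**Figure D2:**
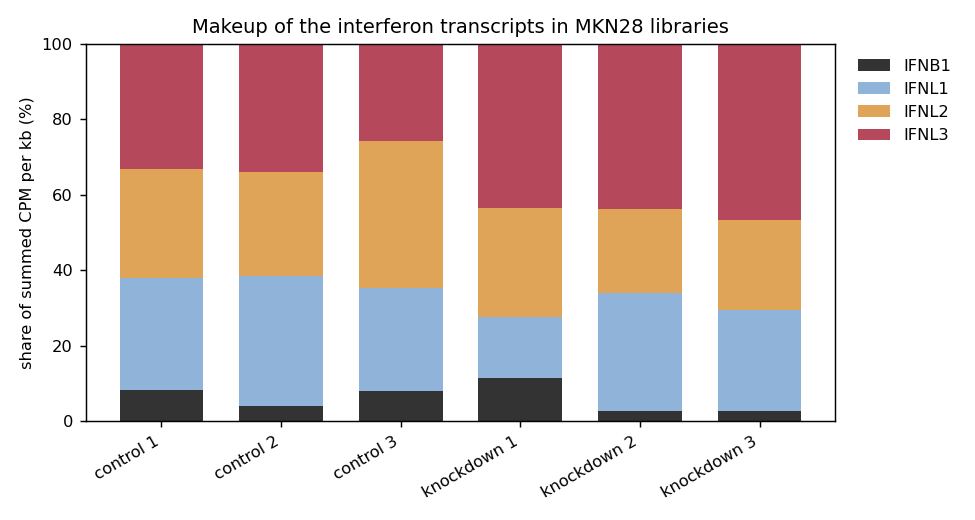
Share (%) of each ligand in the summed ligand CPM per kilobase of transcript, for the 3 control and 3 knockdown libraries of MKN28. IFNB1 makes up 2.73% to 11.6% of the bars and IFNL3 25.7% to 46.7%.

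Knockdown differences moved with transcript length, and the ligand transcripts are shorter than those of the receptor chains. The longest annotated transcripts measure 859 bases for IFNB1, 857 for IFNL1, 737 for IFNL2 and 734 for IFNL3, but 1963 for IL10RB, 4284 for IFNAR2, 4549 for IFNLR1 and 6139 for IFNAR1. With the genes tested split into 4 equal classes by length, the median log2 fold change was 1.18 in the shortest class, then 0.30, −0.59 and −1.65. Counted from the shortest, the ligands fell in class 1, IL10RB in class 2, IFNAR2 and IFNLR1 in class 3 and IFNAR1 in class 4. In the shortest class, 35 to 78 of 3716 genes had a larger log2 fold change than the ligand concerned. After removal of each library's trend on length and GC content, the log2 fold change was 4.15 for IFNB1, 2.41 for IFNL1, 2.56 for IFNL2 and 3.22 for IFNL3. The lambda values thus moved further than that of IFNB1, with 42.0% GC against 56.5% to 60.4% in the lambda genes. Library totals alone in place of TMM gave 4.05, 3.60, 3.80 and 4.48 in the same order, with the median over all genes at −0.92 in place of −0.20.

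**Figure D3:**
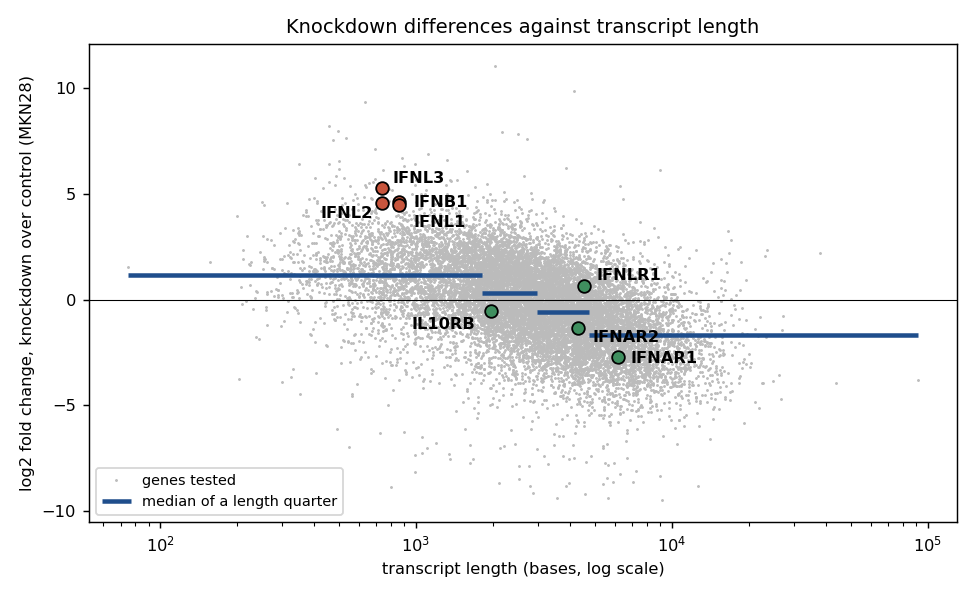
Log2 fold change of knockdown over control in MKN28 against transcript length (bases, log scale) for all genes tested (grey), with the ligand genes in red, the receptor chain genes in green and the median of each of 4 length classes in blue. The class medians fall from 1.18 to −1.65, and the 4 ligands lie far above the median of the shortest class.

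In MKN45 none of the 4 ligand genes had a count in any of the 6 libraries, so a fall with overexpression could not be measured. No rise was seen, with 3 counts at 0.153 to 0.175 CPM in the overexpression libraries by library totals. Over the 104584770 counts of the 6 MKN45 libraries, 0 counts allow a level of up to 0.0287 CPM by library totals (3 counts, counting error only). MKN28 controls were at least 55.3-fold higher for IFNB1, 285-fold for IFNL1, 228-fold for IFNL2 and 249.6-fold for IFNL3 against that level. These are comparisons of levels without a test, since the MKN28 controls took part in choosing the genes.

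The other interferon genes were almost silent in both lines. Of 18 listed genes, 13 of them interferon alpha genes, 15 had 0 counts in all libraries and the highest single count was 9. IFNL4 had 9, 8 and 5 counts in MKN28 controls and 1, 0 and 3 in the knockdown. IFNE, an interferon of epithelia, had 5, 0 and 3 against 1, 0 and 0, and IFNA8 had 2 counts in knockdown replicate 3 alone. The knockdown libraries therefore held transcripts of IFNB1 and the 3 lambda genes and at most 3 counts of any other interferon, and the cluster neighbour IFNL4 was not among the high genes.

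The receptor chain genes went the other way or moved little in the knockdown. IFNAR1, the type I receptor chain that binds TYK2, had 1426, 707 and 1684 counts in controls and 253, 41 and 34 in knockdown libraries. The levels were 59.9, 31.4 and 74.8 CPM against 16.4, 3.85 and 3.70 CPM, with no overlap and with knockdown replicate 1 nearest to the controls. The log2 fold change was −2.73 (SE 0.69), −1.69 with replicate 1 as the lone knockdown library and −1.06 after removal of the length and GC trend. In the length class of IFNAR1, with a median of −1.65, 970 of 3716 genes had a lower log2 fold change.

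IFNAR2, the chain that binds type I interferon most tightly, had 537, 636 and 456 counts against 221, 51 and 71, or 22.5, 28.3 and 20.2 CPM against 14.3, 4.79 and 7.73 CPM. Its log2 fold change was −1.33 (SE 0.54), or −0.65 after removal of the length and GC trend. In the length class of IFNAR2, with a median of −0.59, 1238 of 3716 genes had a lower log2 fold change. IL10RB had 48.6, 42.9 and 41.9 CPM in controls and 25.5, 26.7 and 33.4 CPM in the knockdown, and all 3 knockdown libraries were below the lowest control. Its log2 fold change was −0.55 (SE 0.44), or −0.86 after removal of the length and GC trend, below the −0.65 of IFNAR2. Relative to the median of all genes it was −0.35, or −0.57 after removal of the trend. That relative value was −0.13 without the filter and 0.11 without knockdown replicate 1. In its length class, with a median of 0.30, 1122 of 3716 genes had a lower log2 fold change. Among genes tested, 31.5% had all 3 knockdown libraries below all controls, and nothing is read from this count either.

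IFNLR1, the lambda-specific chain, was the exception. Its counts were 289, 444 and 219 in controls and 311, 212 and 195 in the knockdown, or 12.1, 19.7 and 9.72 CPM against 20.1, 19.9 and 21.2 CPM. The TMM-scaled groups just failed to overlap, with a log2 fold change of 0.65 (SE 0.49), but the value was −0.13 by library totals alone, with overlapping groups. Relative to the median of all genes it was 0.85 with TMM and 0.79 with library totals. It had moved little while the other genes of its length class had a median of −0.59. In that class 836 of 3716 genes had a higher log2 fold change than IFNLR1. After removal of the length and GC trend its log2 fold change was 0.60.

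**Figure D4:**
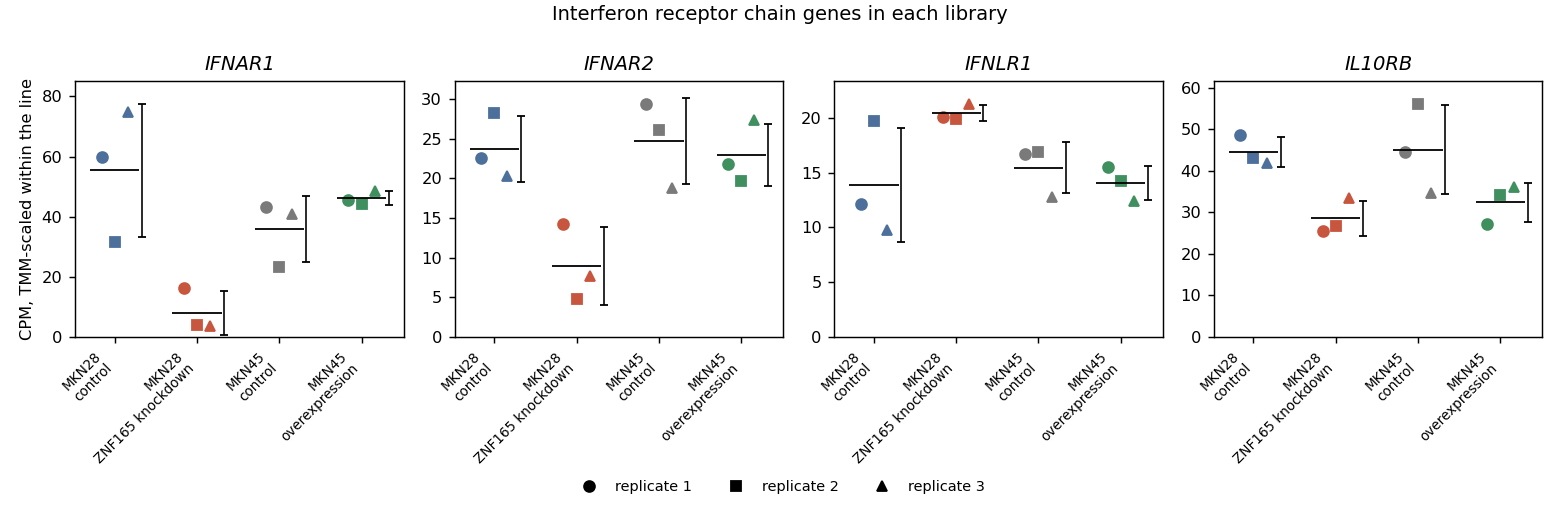
CPM (linear scale, TMM-scaled within each line) of the 4 receptor chain genes in each library, with group means as lines and SD as bars. IFNAR1, IFNAR2 and IL10RB are lower in all knockdown libraries than in MKN28 controls, IFNLR1 is slightly higher with this scaling, and the MKN45 groups lie close together.

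IFNAR2, IL10RB and IFNAR1 are neighbours on chromosome 21, within 129962 bases and all on the plus strand, while IFNLR1 is on chromosome 1 (24154157 to 24187959, minus strand). The read-through transcript IFNAR2-IL10RB, listed as a gene of its own, had 64 to 90 counts in MKN28 controls and 22 to 85 in the knockdown. IL10RB-DT, on the other strand, had at most 5 counts. Reads of the read-through could have been given to either of its parts, so the values of IFNAR2 and IL10RB carry that uncertainty.

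Overexpression in MKN45 uses no library that took part in the choice and can be tested. By edgeR's quasi-likelihood test with Benjamini-Hochberg adjustment at 0.05, 0 of the 4 receptor chain genes passed, 0 of 4 at an unadjusted p under 0.05, and 0 by DESeq2. That comparison called 1.13% of 15833 genes by edgeR, 0.935% higher and 0.196% lower, and 1834 genes by DESeq2. The share of all genes at the unadjusted level was not computed, so nothing is read from these counts. IFNAR1 had 43.3, 23.2 and 40.8 CPM in controls and 45.6, 44.1 and 48.6 CPM with overexpression. Its lowest value was control replicate 2, and the groups did not overlap, as at 38.2% of genes tested (19% higher and 19.2% lower). The log2 fold change was 0.37 (SE 0.27, edgeR adjusted p = 0.391), and −0.069 after removal of the length and GC trend. IL10RB had 44.5, 56.0 and 34.7 CPM against 27.1, 34.2 and 36.0 CPM, with overlap (−0.47, SE 0.25, edgeR adjusted p = 0.260). IFNAR2 went from 24.7 ± 5.42 to 22.9 ± 3.93 CPM (edgeR adjusted p = 0.829) and IFNLR1 from 15.5 ± 2.30 to 14.02 ± 1.56 CPM (SD, n = 3, edgeR adjusted p = 0.734), both with overlap.

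The control libraries of the lines give the receptor levels without changed ZNF165, scaled together. IFNAR1 stood at 67.5 ± 24.0 CPM in MKN28 and 35.9 ± 11.02 CPM in MKN45 (log2 fold change −0.95 for MKN45 over MKN28, SE 0.39, edgeR adjusted p = 0.0671). It passed without MKN28 control replicate 2 (−1.15, edgeR adjusted p = 0.0248), and after removal of the length and GC trend (−0.53, adjusted p = 0.0490). IL10RB stood at 55.0 ± 5.58 and 45.3 ± 10.7 CPM, IFNAR2 at 29.5 ± 6.68 and 24.8 ± 5.45 CPM, and IFNLR1 at 17.4 ± 7.43 and 15.5 ± 2.31 CPM (SD, n = 3). None of these passed (edgeR adjusted p of 0.527, 0.602 and 0.791), and the groups overlapped for all 4 chains. At an unadjusted p under 0.05 the count was 1 of 4, with the share of all genes at that level not computed. By DESeq2 it was 0 of 4, beside 7189 of 16088 genes. The edgeR fit called 41.8% of 16088 genes in this comparison, and 52.8% had groups that did not overlap (26.7% higher and 26.1% lower in MKN45). MKN45 control cells thus had transcripts of both receptors, with libraries overlapping those of MKN28, but no ligand count. Per kilobase of transcript IL10RB was the highest chain in every library, at 13.0 to 28.5 CPM per kilobase, and IFNLR1 in MKN28 controls was at 2.14 to 4.34.

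Genes listed as induction factors of the ligands, which are transcription factors and the kinases TBK1 and IKBKE, moved in both directions in the knockdown. Of 10 induction factors 9 were tested, 3 rose, 1 fell and 5 did not pass, with a median log2 fold change of 0.92 beside −0.20 over all genes. The sign of that median turned with the processing: it was −0.0065 with library totals alone (all genes −0.92; 1 higher and 1 lower) and −0.15 after removal of the length and GC trend (all genes −0.29; 3 higher and 2 lower). The counts were 6 higher and 2 lower without knockdown replicate 1, and 0 higher and 1 lower without control replicate 1 or without control replicate 3. Over all genes those fits called 10378 of 15758, 2642 of 15276 and 3171 of 15427, in that order, so nothing is read from these counts. In this comparison 40.8% of 14939 genes passed, 19.2% higher and 21.6% lower; of the calls 47.0% were higher, or 25.1% with library totals alone. RELA, the main activating NF-kB subunit, rose 3.66-fold from 126 ± 30.2 to 462 ± 176 CPM (edgeR adjusted p = 0.011). IRF1, an interferon regulatory factor, rose 3.34-fold from 26.9 ± 16.2 to 89.9 ± 23.7 CPM (edgeR adjusted p = 0.0211), and JUN, a subunit of AP-1, rose 2.97-fold (edgeR adjusted p = 0.0306). ATF2, which pairs with JUN at the IFNB1 enhancer, fell from 28.8 ± 7.81 to 2.30 ± 1.63 CPM (log2 fold change −3.55, edgeR adjusted p = 0.00445; SD, n = 3). IRF3 (0.92, edgeR adjusted p = 0.218), IRF7 (1.22, adjusted p = 0.109) and the kinase TBK1 (−1.81, adjusted p = 0.0593) did not pass. JUN was named after its value was seen. With library totals alone IRF1 and JUN did not pass (edgeR adjusted p of 0.134 and 0.191). The calls also ended for RELA without control replicate 1 or 3 (edgeR adjusted p of 0.0757 and 0.0564), for IRF1 when control replicate 1 or 3 or knockdown replicate 2 or 3 was left out (0.0549 to 0.113), and for JUN without any library but knockdown replicate 1 (0.0539 to 0.135).

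Below the receptors, STAT2, the transducer that carries IRF9 to interferon-stimulated genes, was lower. It had 1496, 1661 and 1378 counts in controls and 226, 86 and 96 in the knockdown, with no overlap. Its level fell from 65.9 ± 6.89 to 11.04 ± 3.31 CPM (log2 fold change −2.50, SE 0.47, edgeR adjusted p = 0.00463). JAK1 (−1.45, edgeR adjusted p = 0.0613), STAT3 (−0.95, adjusted p = 0.130), IRF9 (−0.74, adjusted p = 0.248) and TYK2 (−0.04, adjusted p = 0.954) did not pass. The JAK1 value was −2.18 (adjusted p = 0.000200) without knockdown replicate 1, and JAK1 also passed by DESeq2 (adjusted p = 0.0413). IRF9 passed as lower with library totals alone (−1.51, edgeR adjusted p = 0.0474) and after removal of the length and GC trend (−2.01, adjusted p = 0.00737).

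Of 8 feedback inhibitors 1 rose, 3 fell and 4 did not pass, beside 19.2% of all genes called higher and 21.6% lower. Their median log2 fold change was −0.41, beside −0.20 over all genes. SOCS3, which blocks JAK kinases, rose 3.83-fold from 11.1 ± 6.31 to 42.7 ± 18.7 CPM (edgeR adjusted p = 0.0225), a gene named after its value was seen. Its call ended with library totals alone (adjusted p = 0.131), after removal of the length and GC trend (adjusted p = 0.0585), and in the absence of control replicate 1 or 3 or knockdown replicate 2 (edgeR adjusted p of 0.0669 to 0.102). TRIM24, a co-regulator of transcription, fell by 3.95 on the log2 scale, PIAS1, an inhibitor of STAT signalling, by 2.87 and the phosphatase PTPN11 by 2.83 (edgeR adjusted p of 0.00367, 0.00409 and 0.0112). PIAS1 did not pass after removal of the length and GC trend (−0.48, edgeR adjusted p = 0.316). USP18, the interferon-induced brake on IFNAR2, did not pass (0.72 on the log2 scale, edgeR adjusted p = 0.243). Of 6 related receptor chains 5 were tested and 0 passed, with a median of −0.56. After removal of the length and GC trend 3 of the 5 passed as lower, with a median of −1.31, and without knockdown replicate 1 the count was 1 lower. Over all genes the trend-removed fit called 5790 of 14939, 40.3% of them higher, with a median of −0.29. The fit without knockdown replicate 1 called 10378 of 15758 genes, so nothing is read from these counts.

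The interferon-stimulated genes gave calls in both directions, in numbers near the share over all genes. Of 20 target genes 18 were tested, 3 rose, 3 fell and 12 did not pass. Over all genes 19.2% were called higher and 21.6% lower, so nothing is read from these counts. The median log2 fold change of the targets was −0.44 beside −0.20 over all genes. ISG15, a ubiquitin-like protein, had 4320, 8746 and 2550 counts in controls and 12845, 36812 and 21970 in the knockdown. Its level rose 9.77-fold from 228 ± 144 to 2225 ± 1320 CPM (SD, n = 3, edgeR adjusted p = 0.00569). OASL rose 2.91-fold and IFI6 2.79-fold (edgeR adjusted p of 0.0315 and 0.0336). Neither passed with library totals alone (adjusted p of 0.206 and 0.235), nor when control replicate 1 or 3 or knockdown replicate 2 or 3 was left out (edgeR adjusted p of 0.0575 to 0.160), and IFI6 turned to −0.35 (adjusted p = 0.452) after removal of the length and GC trend. IFI44L had 82, 39 and 80 counts in controls and 0 in the 3 knockdown libraries (edgeR adjusted p = 0.0037). By library totals that is at least 57.1-fold lower, set against 3 counts over the knockdown group. MX2, a GTPase that acts against retroviruses, had 46, 39 and 39 counts against 9, 0 and 0 (edgeR adjusted p = 0.0382), and OAS1 fell by 2.42 on the log2 scale (edgeR adjusted p = 0.0211). The MX2 call ended with library totals alone (adjusted p = 0.0502) and without any library but knockdown replicate 1 (0.0738 to 0.111), and the OAS1 call when control replicate 1 or 2 or knockdown replicate 2 was left out (edgeR adjusted p of 0.0581 to 0.0837). OASL, IFI6 and OAS1 were named after their values were seen.

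Several targets were split within the knockdown, with replicate 1 highest as for IFNB1. These were also named after their values were seen. IFIT1 had 4747, 3846 and 3218 counts in controls, 8256 in knockdown replicate 1, and 216 and 120 in replicates 2 and 3. IFIT2 had 5071, 2651 and 4641 in controls, then 16428 against 1621 and 1028. CXCL10 had 80, 53 and 77 in controls, then 137 against 0 and 0, and CXCL11 had 40, 15 and 23, then 125 against 19 and 15. On the scaled level, replicate 1 was above all controls for these 4 genes, and replicates 2 and 3 were below all controls for IFIT1 and CXCL10. For IFIT2 replicate 2 lay within the control range and replicate 3 below it (112 CPM against a lowest control of 118). For CXCL11 replicate 2 also lay above all controls (1.78 CPM against a highest control of 1.68), and replicate 3 lay within their range. None of the 4 passed over the 3 libraries (edgeR adjusted p of 0.0707 to 0.989). Over the 20 targets the median of log2(CPM + 0.5) relative to the control mean was −0.05 in knockdown replicate 1 and −1.14 and −1.10 in replicates 2 and 3, with 9, 5 and 6 genes above the control mean. Without replicate 1 the count of targets was 3 higher and 10 lower of 19 tested. That fit also called 10378 of 15758 genes, 43.0% of them higher, so many lower calls are general to it.

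**Figure D5:**
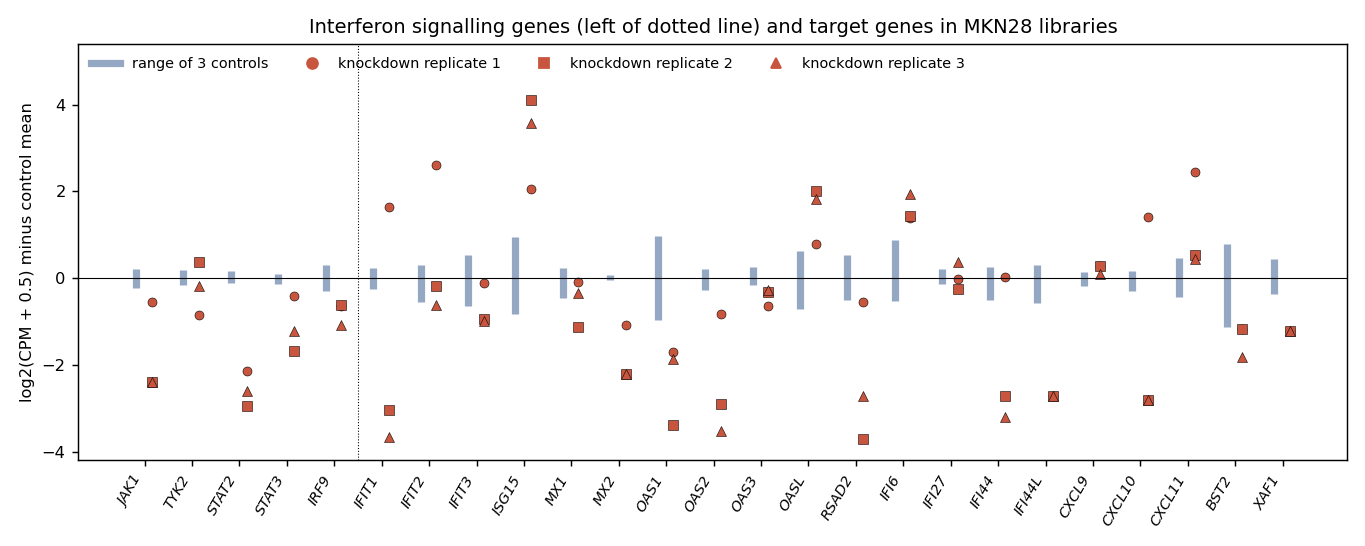
Difference of log2(CPM + 0.5) from the mean of the 3 MKN28 controls for 5 signalling genes and 20 interferon-stimulated genes, with controls as a range bar and knockdown replicates as points. ISG15, OASL and IFI6 lie above the control range in all 3 knockdown libraries, while IFIT1 and CXCL10 are above it in replicate 1 and below it in replicates 2 and 3.

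In MKN45 overexpression 0 of 41 tested genes on the same lists passed in edgeR, beside 1.13% of 15833 genes in all, so nothing is read from that 0. The count was 10 at an unadjusted p under 0.05. The share of all genes at that unadjusted level was not computed, so nothing is read from it. DESeq2 called 2 of these genes, beside 1834 of 15833 genes in all: BST2, a membrane tether of virions, at −1.14 (DESeq2 adjusted p = 0.00403), and PTPN6, a phosphatase that acts on JAK kinases, at −0.72 (DESeq2 adjusted p = 0.0280). The transducers had log2 fold changes of 0.22 for JAK1, 0.19 for TYK2, 0.27 for STAT2 and −0.55 for IRF9 (edgeR adjusted p of 0.344 to 0.581).

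Between the control libraries of the lines the interferon targets differed widely. Median log2 fold changes on the other lists were 0.0072 for induction factors, −0.29 for receptor signalling, −1.17 for feedback inhibitors and −0.08 for related receptor chains. The MKN28 controls are shared with the knockdown comparison, so the values stand side by side with those above and are not further support. Of 18 tested interferon targets 0 were higher and 15 lower in MKN45, with a median log2 fold change of −3.04 beside −0.04 over all genes, where 21.4% of genes were called higher and 20.4% lower. IFI44L and CXCL10 had 0 counts in MKN45 controls, where MKN28 was at least 61.8-fold and 64.3-fold higher against 3 counts over the MKN45 controls, by library totals. RSAD2, an antiviral enzyme, had 281, 190 and 404 counts in MKN28 and 0, 0 and 3 in MKN45 (edgeR adjusted p = 9.95e-06).

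Among the induction factors 2 were higher and 1 lower. IRF7, the factor that amplifies interferon transcription, had 585, 899 and 418 counts in MKN28 controls and 0, 1 and 0 in MKN45 controls (edgeR adjusted p = 1.2e-06), and 0 in every overexpression library. IRF5, another factor of this family, was the reverse, with 0 counts in MKN28 controls and 78, 70 and 89 in MKN45 controls, at least 86.7-fold higher against 3 counts over the MKN28 controls. IRF1 was 2.21-fold higher in MKN45 (edgeR adjusted p = 0.0443), a call that ended without MKN28 control replicate 1 or 3 or MKN45 control replicate 2 or 3 (edgeR adjusted p of 0.0654 to 0.182). IRF3 (0.63 on the log2 scale, edgeR adjusted p = 0.163) and RELA (−0.04, edgeR adjusted p = 0.935) did not pass.

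Below the receptors, STAT3 was higher in MKN45 (76.8 ± 8.51 to 225 ± 22.0 CPM, edgeR adjusted p = 0.00102; SD, n = 3). STAT2 (−0.65, edgeR adjusted p = 0.0968), JAK1 (−0.31, adjusted p = 0.442), IRF9 (−0.26, adjusted p = 0.649) and TYK2 (0.05, adjusted p = 0.907) did not pass. STAT2 passed as lower with library totals alone (−0.76, edgeR adjusted p = 0.0468) and after removal of the length and GC trend (−0.76, adjusted p = 0.00939). Of 8 feedback inhibitors 1 was higher and 4 were lower in MKN45, among them SOCS1 (log2 fold change −3.47, edgeR adjusted p = 0.000149), TRIM24 (−2.35, adjusted p = 0.000316) and USP18 (−1.72, adjusted p = 0.00228). The higher gene, SOCS3, did not pass with library totals alone or when any library but MKN28 control replicate 2 was left out. Of 6 related chains 2 were higher and 2 lower, with 0 lower when MKN28 control replicate 1 or 3 or MKN45 control replicate 2 or 3 was left out. IL20RA, a chain of the interleukin 20 receptor, had 2, 4 and 1 counts in MKN28 and 608, 419 and 523 in MKN45. Of the interferon gamma receptor, IFNGR2 was 3.05-fold higher in MKN45 and IFNGR1 lower (log2 fold change −1.19, edgeR adjusted p = 0.0241). The IFNGR1 call ended without MKN28 control replicate 1 or 3 or MKN45 control replicate 2 or 3 (edgeR adjusted p of 0.0532 to 0.0929).

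Likeness of pattern was measured as Pearson's r of log2(CPM + 0.5) over all 12 libraries, TMM-scaled together, against 17057 other genes. The ligands are 0 in the 6 MKN45 libraries, so the points share their line as well as their pattern, and r is a description. Among the ligands r was 0.995 to 0.998 between the 3 lambda genes and 0.955 to 0.976 between IFNB1 and a lambda gene. GAST, which encodes the stomach hormone gastrin, was most like IFNL1 (r = 0.998) and IFNL3 (r = 0.996) and was also near IFNL2 (r = 0.996), and CST6, a protease inhibitor, followed for IFNL1 (r = 0.995). IFNB1 was most like KLHL38 (r = 0.991), and CENPA, the centromeric histone, was also near (r = 0.979). IFNAR1 was near PKP4 (r = 0.993), IFNAR2 near CHEK2 (r = 0.954), and IFNLR1 was most like TPST2 (r = 0.947) and IL10RB like CARS1 (r = 0.888). The type I chains IFNAR1 and IFNAR2 were alike at r = 0.839, while the lambda chains IFNLR1 and IL10RB were at 0.0632.

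Marker lists gave mixed values. The 6 markers of gastric epithelium were present in every library, with summed levels of 4475 to 39275 CPM by library totals, highest in the knockdown at 14455 to 39275 CPM. The keratins KRT8, KRT18 and KRT19 carried that sum, and other members went their own way. CDH1, which encodes E-cadherin, had 6960, 8322 and 5993 counts in MKN28 controls and 1460, 772 and 416 in the knockdown, lower in all 3. EPCAM had 10763, 8675 and 9688 counts against 12554, 1940 and 1815, and CLDN4, a tight junction gene, had 34, 89 and 42 against 56, 40987 and 21578, so both split replicate 1 from replicates 2 and 3. Of 5 markers of plasmacytoid dendritic cells, a blood cell known for type I interferon, CLEC4C, LILRA4 and TCL1A had 0 counts in all 12 libraries. GZMB, the granzyme also on that list, had 5, 12 and 6 counts in MKN28 controls and 46, 128 and 145 in the knockdown, so the summed level of the list was 0.351 to 0.910 CPM in controls and 3.11 to 12.01 CPM in the knockdown. IL3RA, of the same list, went the other way, with 4, 5 and 0 counts against 1, 0 and 0. Of 7 leukocyte markers the defining PTPRC had at most 3 counts in any library, and CD68, a lysosomal protein, made up most of the sum of 11.7 to 38.5 CPM in MKN28 controls and 34.4 to 40.6 CPM in the knockdown. CD14, a monocyte marker of the leukocyte list, had 3, 0 and 7 counts in controls and 26, 63 and 34 in the knockdown, so it was higher where the ligands were. Its groups did not overlap, as at 22.2% of genes tested with the knockdown higher. Other leukocyte markers were lower: ITGAM had 20, 16 and 30 counts against 18, 7 and 3, and NCAM1 had 2, 2 and 6 against 0, 0 and 0. The part of GZMB, CD14, CD68 and the epithelial genes in the ligand and receptor values was not tested. Fibroblast markers, mostly COL1A1, summed to 89.0 to 122 CPM in MKN28 controls and 27.5 to 44.8 CPM in the knockdown. COL3A1, of the same list, went the other way, with 0, 0 and 0 counts against 41, 7 and 6. Endothelial markers summed to at most 2.16 CPM in any group. In bulk RNA, fewer cells with a transcript and less of it per cell cannot be told apart.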

How the data were processed

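The authors' deposited values are raw read counts, given for each Ensembl gene in each of 12 libraries, per the file headers. HISAT2 and StringTie are named without versions per the submitters' processing notes. No source used here gives the counting step, strand setting, genome build or annotation. Of 50868 identifiers, 49659 had a symbol in the gene name table and 50076 a length in GENCODE 29, whose coordinates are printed. Each comparison was fitted across all genes of its 6 libraries with edgeR 4.0.16 (TMM, filterByExpr with minimum count 10 and total 15, quasi-likelihood test, threshold 0.05 after Benjamini-Hochberg adjustment), checked on simulated counts. The 8 interferon genes and the lists were chosen with earlier results of these data known. Named pathway genes are up to 3 per list and comparison with the largest called log2 fold change, plus JAK1, TYK2, STAT2 and IRF9; genes outside that rule (JUN, SOCS3, OASL, IFI6, OAS1, IFIT1, IFIT2, CXCL10, CXCL11, and genes given as not passing) were named after their values were seen. A few items the rule would name are not reported here. Alternatives were library totals, upper-quartile factors, DESeq2 1.42.0, no filter, single libraries left out, the replicate number as a block, and a spline trend on length and GC content removed. Reads carry no molecular identifiers, so floors of 3 counts cover counting error only.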

Additional observations from a re-analysis of the deposited data

How the results depend on the processing

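In the knockdown the ligand genes were higher and IFNAR1, IFNAR2 and IL10RB lower under every alternative run. Relative to the median of all genes, IL10RB turned to 0.11 without knockdown replicate 1. The ligand median log2 fold change of 4.59 was 2.89 after removal of the length and GC trend and 2.85 with the replicate block added to that. The receptor median of −0.94 was −1.66 with library totals alone, where IFNLR1 turned to −0.13. Of 6092 genes past the threshold 47.0% were higher, against 25.1% with library totals alone. That count was 2642 without control replicate 1, 3171 without control replicate 3, 10378 without knockdown replicate 1 (range 2642 to 10378) and 3352 with replicate 1 as the lone knockdown library. Of the pathway genes 16 passed, with 9, 6, 8, 5 and 18 tested on the lists, beside 40.8% of all genes called. The count was 7 to 32 with single libraries left out (7 and 9 without control replicates 1 and 3, 32 and 9 without knockdown replicates 1 and 2). It was 26 after removal of the length and GC trend with the replicate block added. The calls over all genes moved as well, so nothing is read from these counts.

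In overexpression 179 genes passed, 1834 by DESeq2, 722 without the filter, 1093 after removal of the length and GC trend, 8 with the replicate block, 3 in the fit of all 12 libraries and 1 to 1338 with single libraries left out (591 and 1338 without control replicates 1 and 2, 6 without control replicate 3, and 1, 1 and 12 without overexpression replicates 1 to 3). Pathway genes past the threshold went from 0 to 2 by DESeq2, 1 without the filter and 0 to 4 with single libraries left out, the 4 without control replicate 2. IFNAR1 turned to −0.069, or −0.068 with the replicate block, after removal of the trend, and IFNAR2 to 0.0053 with library totals alone and 0.031 without control replicate 1 (−0.26 to 0.031 over single libraries left out). Between lines, 1 receptor gene in place of 0 passed with the replicate block, after removal of the trend, with both, and without MKN28 control replicate 2 (0 to 1 over single libraries). IFNLR1 turned to 0.26 without MKN28 control replicate 2 and 0.0053 without MKN45 control replicate 3 (−0.37 to 0.26 over single libraries). TYK2, near 0, changed sign in the knockdown (0.14 by DESeq2, 0.016 in the fit of all 12, and 0.05, 0.36 and 0.00059 without control replicate 2, knockdown replicate 1 or 3, from −0.39 to 0.36 over single libraries) and between lines (−0.075 with library totals alone, −0.043 and −0.059 without MKN28 control replicate 3 or MKN45 control replicate 2, from −0.059 to 0.21 over single libraries). Other than by construction, the cause was not tested.

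The replicate numbers did not pair the libraries: same-numbered libraries deviated together at r of 0.31, 0.48 and −0.41 across genes in MKN28 and −0.08, −0.06 and 0.10 in MKN45. With the replicate block 6994 genes passed in the knockdown.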
